A study of Mus musculus with 8 samples.

Results

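Circadian clock genes were followed in bulk RNA sequencing of mouse skin keratinocytes, as 10 genes taken by symbol: the core activators Arntl (also called Bmal1) and Clock, the repressors Per1, Per2, Per3 and Cry1, the REV-ERB nuclear receptors Nr1d1 and Nr1d2, and the output factors Dbp and Tef. All 10 were found among the 24421 gene symbols of the count tables, and all 10 passed the filter on low counts. The set was drawn up with the difference between the genotypes already known, so the members' genotype values below are a description and no p-value is given for them. The study compared 4 control libraries (InvEE, K5 Cre-, HMGB1 fl/fl) with 4 knockout libraries (InvEE, K5 Cre+, HMGB1 fl/fl), all from the strain background CBA x C57Bl/6J. Every group thus carried the InvEE transgene, an activated MEK1 kinase under the involucrin promoter of suprabasal keratinocytes, and the floxed Hmgb1 allele. The knockouts alone carried Cre under the keratin 5 promoter of basal keratinocytes, so the presence of Cre and the loss of Hmgb1 cannot be told apart. Neither the age of the mice nor the hour of tissue collection is stated in the labels used here, and the labels number the replicates without saying that each is a separate animal.

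The mammalian clock is a loop of transcription. ARNTL and CLOCK bind E-boxes as a pair and switch on the Per, Cry, Nr1d, Dbp and Tef genes; PER and CRY proteins then inhibit that pair, while REV-ERB proteins, from the Nr1d genes, repress Arntl and other genes that hold ROR elements. In a running clock the genes driven through E-boxes and D-boxes therefore peak at about the opposite time of day from Arntl, with Cry1 delayed. Keratinocytes hold such a clock, which times cell division and differentiation in the epidermis, and clock genes also change with the hair cycle.

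The short promoter stretches below are shown for letters that these factors can bind, and no binding was measured. RefSeq promoter windows (GRCm38.p6, the assembly of mm10), each of 250 bases before and 50 bases after an annotated start, were matched for 9 of the 10 genes, 14 windows in all. They were searched on both strands for the E-box CACGTG, the related E-prime box CACGTT, the D-boxes TTATGTAA and TTACGTAA, the ROR element TAGGTCA and the cAMP element TGACGTCA. These letters do not overlap one another in the stretches shown. Of all 32851 RefSeq windows, 7.15% hold the E-box letters, 4.68% the E-prime box, 0.938% and 0.119% the D-boxes, 2.61% the ROR element and 1.79% the cAMP element. Capitals mark the matched letters, each stretch reads 5′ to 3′ on the strand of its gene, and a match is a description of the letters only.
Arntl, ROR element, chr7:113207530-113207559, plus strand: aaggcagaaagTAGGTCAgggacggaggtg
Per1, E-box, chr11:69098771-69098800, plus strand: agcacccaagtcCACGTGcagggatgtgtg
Per3, first D-box, chr4:151044852-151044881, minus strand: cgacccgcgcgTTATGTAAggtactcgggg
Per3, second D-box, chr4:151044805-151044834, minus strand: cccgcccgcggTTATGTAAcccccgccgtg
Cry1, E-box, chr10:85185097-85185126, minus strand: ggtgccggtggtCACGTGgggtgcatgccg
Cry1, E-prime box read on its other strand, chr10:85185116-85185145, minus strand: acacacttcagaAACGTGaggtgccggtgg
Tef, E-box at the upstream start, chr15:81802534-81802563, plus strand: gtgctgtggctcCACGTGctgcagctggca
Tef, E-box at the downstream start, chr15:81811264-81811293, plus strand: cacctggcccagCACGTGtctacatcgttt

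For the REV-ERB pair the full 250 bases before the start are given, since these 2 genes are set side by side throughout. The Nr1d1 stretch holds 1 E-prime box, read here on its other strand as AACGTG and placed from 28 bases before the start, and the Nr1d2 stretch holds none of the letters searched.
Nr1d1, chr11:98775378-98775627, minus strand: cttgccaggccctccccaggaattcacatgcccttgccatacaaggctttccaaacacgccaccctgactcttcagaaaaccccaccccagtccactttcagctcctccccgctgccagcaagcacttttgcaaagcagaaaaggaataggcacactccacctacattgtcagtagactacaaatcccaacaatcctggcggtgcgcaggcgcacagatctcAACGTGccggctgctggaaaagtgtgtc
Nr1d2, chr14:18239107-18239356, minus strand: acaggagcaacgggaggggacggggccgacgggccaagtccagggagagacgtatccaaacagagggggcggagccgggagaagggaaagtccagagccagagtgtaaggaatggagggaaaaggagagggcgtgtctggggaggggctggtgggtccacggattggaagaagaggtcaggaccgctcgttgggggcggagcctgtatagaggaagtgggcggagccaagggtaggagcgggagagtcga
The windows of Clock and Dbp, the other windows of Arntl and Per1, and the Nr1d2 window held no match, which says only that these exact letters are not in these 300 bases.

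Across the libraries, 30506676 to 34229030 counts fell on genes. For the deleted gene, Hmgb1, the controls gave 565.5 to 615 CPM (gene counts scaled to a common library size, with TMM factors) and the knockouts 113.4 to 126.2 CPM. The keratinocyte markers Krt5 and Krt14 were abundant in every library, whereas summed marker levels reached at most 24 CPM for fibroblasts, 49.8 CPM for immune cells, 2.06 CPM for endothelium and 4.66 CPM for melanocytes. The fibroblast markers summed to 5.98 to 12 CPM in controls and 3.41 to 24 CPM in knockouts, and their part in the clock gene values was not tested. Of the markers tested, the suprabasal keratin Krt10 and the fibroblast proteoglycan Dcn (0.663 ± 0.229 against 1.92 ± 0.615 CPM; SD, n = 4 for both) were higher in the knockout by edgeR. Control replicates 2 and 3 and knockout replicate 1 held Y-linked transcripts (the other 5, below 1000 such counts each, are called libraries that lack them). In bulk RNA, fewer cells of a type and less RNA per cell cannot be told apart.

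Of the 10 clock genes, Nr1d1 was higher in the knockout, by 3.14-fold, and the other 9 did not pass the test. A gene passed at an adjusted p under 0.05 in edgeR's quasi-likelihood fit of 13016 genes, which called 8.87% of all genes tested, 4.33% higher and 4.54% lower. The 1 called member of 10 lies near that background, and because the set was chosen on this contrast nothing is read from the count. The median log2 fold change of the 10 was 0.06, against -0.02 over all tested genes, with 6 members above 0 and 4 below. The members' log2 fold changes ran from -0.46 for Dbp to 1.65 for Nr1d1, with Cry1 the second highest at 0.43. Nr1d1 was also the 1 member whose knockout libraries all lay above every control, which held for 7.95% of tested genes with the knockout above and for 17% in either direction. Over the 5 libraries that lack Y-linked transcripts, the log2 fold change was 1.47 for Nr1d1, 0.23 for Cry1, 0.10 for Arntl, 0.05 for Nr1d2 and 0.34 for Per1, and Nr1d1 was again the 1 member called. The plot of levels in each library shows the separation of Nr1d1 and the overlap of the rest.

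**Figure D1:**
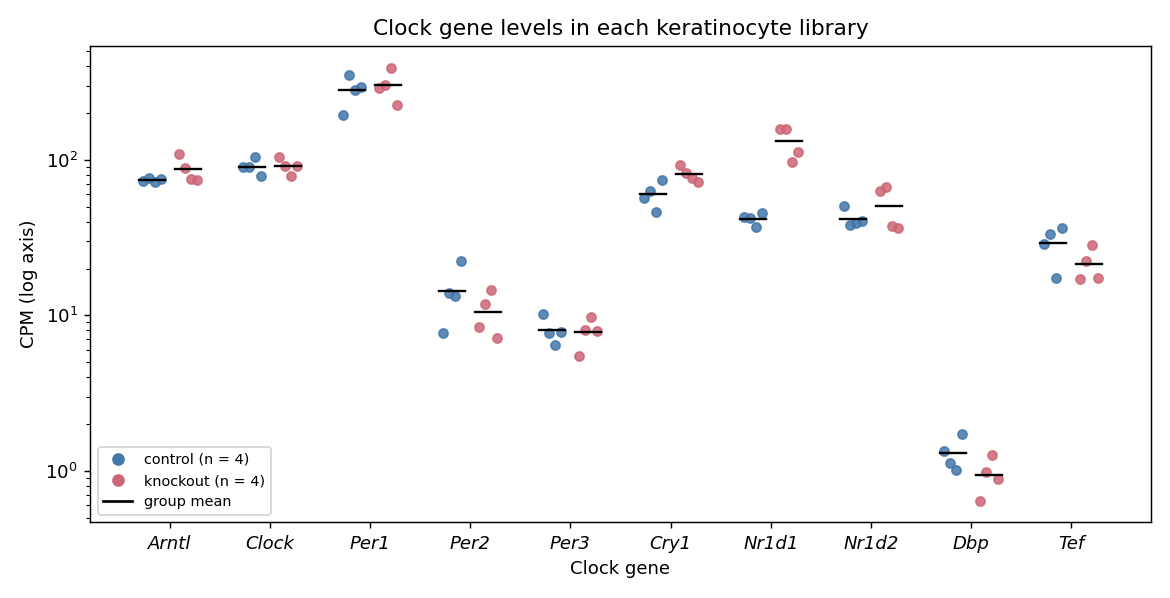
CPM on a log axis for each of the 10 clock genes, with 1 point per library (4 control, 4 knockout) and a bar at the group mean. Nr1d1 knockout points, 96.2 to 159 CPM, all lie above the control points, 36.8 to 45.2 CPM, and the groups of the other 9 genes overlap.

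Nr1d1 (chromosome 11, 98767932 to 98775377, minus strand) encodes REV-ERB alpha, a heme-binding receptor that represses transcription. Control replicates 1 to 4 gave 43.1, 42.1, 36.8 and 45.2 CPM, and knockout replicates 1 to 4 gave 159, 159, 96.2 and 112 CPM; values below follow the same order. The groups did not overlap, and knockout replicates 1 and 2 were the highest. The control mean of 41.8 ± 3.56 CPM compared with 131 ± 32.2 CPM in the knockout (SD, n = 4 for both), and the fitted log2 fold change was 1.65 (SE 0.16). These rest on 1195 to 1547 reads per control library and 2974 to 4849 per knockout library, so counting error is small beside the spread between knockouts.

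Nr1d2 (chromosome 14, 18204056 to 18239106) encodes REV-ERB beta, the close relative with overlapping function. Its controls read 50.2, 37.9, 39.1 and 40.3 CPM and its knockouts 62.6, 66.9, 37.4 and 36.5 CPM. Knockout replicates 1 and 2 lay above all controls and replicates 3 and 4 below all of them. The log2 fold change was 0.28 (SE 0.21), with group means of 41.9 ± 5.66 and 50.9 ± 16.1 CPM (SD, n = 4 for both).

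Within each library the ratio of Nr1d1 to Nr1d2 CPM also separated the genotypes, which follows largely from Nr1d1 alone. The ratio to Arntl did so as well, at 0.511 to 0.6 in controls and 1.27 to 1.79 in knockouts. The ratio to Nr1d2 was 0.857, 1.11, 0.941 and 1.12 in controls and 2.53, 2.37, 2.57 and 3.07 in knockouts, or 1.01 ± 0.13 and 2.64 ± 0.299 (SD, n = 4 for both). After each genotype's mean log2 level was subtracted, Nr1d1 and Nr1d2 had a Pearson correlation of 0.88 over the 8 libraries, which share depth and composition effects. By that measure Nr1d2 was 366th of 13015 genes in likeness to Nr1d1.

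At its 3′ end Nr1d1 overlaps exons of Thra (chromosome 11, 98740776 to 98769006), the thyroid hormone receptor alpha gene on the opposite strand. The shared stretch is 263 bases, 8.55% of the Nr1d1 exon length, and whether counting used the strand is unknown here, and reads in this stretch may be lost to either gene. Thra, named for this position and not by the naming rule, was at 38.6, 41.5, 39.6 and 45.7 CPM over the controls and at 33.3, 33.4, 33.6 and 32.5 CPM in knockouts. It was lower in the knockout (log2 fold change -0.32, SE 0.08, edgeR adjusted p = 0.04113), opposite in direction to Nr1d1. The Thra call lay near the threshold and was not followed with other tools, other scalings or libraries left out. The ratio of Nr1d1 to Thra averaged 1.01 ± 0.0783 for controls and 3.96 ± 0.958 for knockouts (SD, n = 4 for both). The plots of Nr1d1 against Nr1d2 and Thra show both relations.

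**Figure D2:**
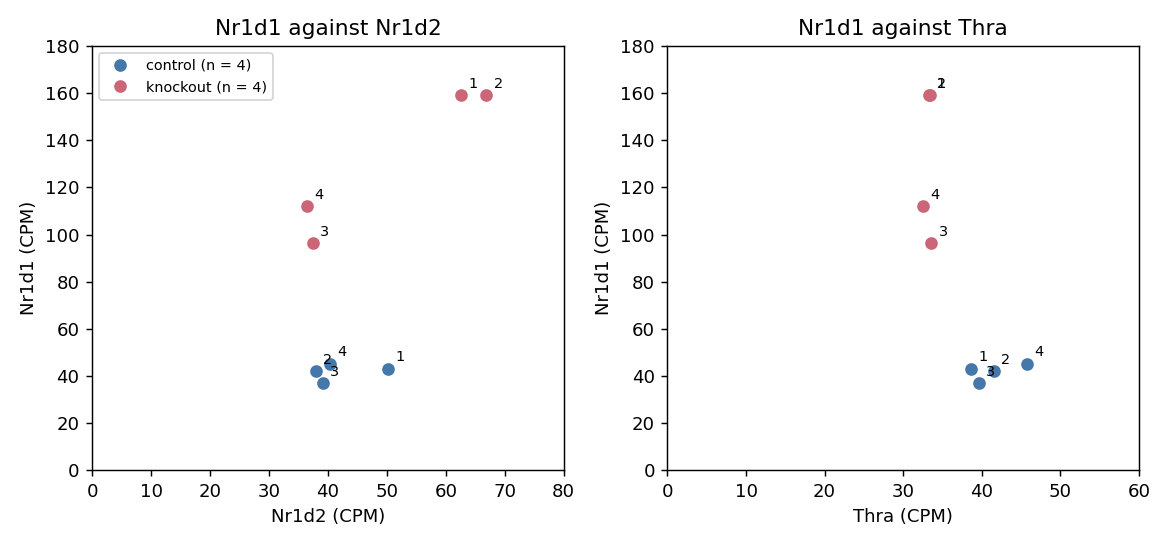
Nr1d1 CPM (vertical) against Nr1d2 CPM (left) and Thra CPM (right), 1 numbered point per library, with control and knockout in separate colours. Knockouts lie above controls in both panels, with Nr1d1 at 2.37 to 3.07 times Nr1d2 in knockouts and at 0.857 to 1.12 times in controls.

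The core activators showed small differences that did not pass the test. Arntl (chromosome 7, 113178471 to 113314126), the partner without which the clock stops, was at 72.7, 76.8, 72 and 75.4 CPM over the controls and at 109, 88.5, 75.6 and 74.5 CPM in knockouts. The controls were close together, and knockout replicates 1 and 2 were above them while replicates 3 and 4 lay within their range (log2 fold change 0.23, SE 0.12). Clock (chromosome 5, 76209868 to 76305603), its binding partner, averaged 90.5 ± 10.6 CPM over controls and 91.3 ± 10.6 CPM over knockouts (SD, n = 4 for both), with a log2 fold change of 0.01 (SE 0.11). Clock ranged from 78.3 to 104 CPM in controls and from 78.4 to 104 CPM in knockouts.

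Cry1 (chromosome 10, 85131700 to 85185054), a strong inhibitor of the ARNTL and CLOCK pair, had the next highest log2 fold change after Nr1d1; Dbp, Tef and Per2 differed by as much in the other direction. Controls gave 57, 63.1, 46 and 74.6 CPM, and knockouts gave 92.5, 82.9, 76.4 and 72.5 CPM. The groups overlapped through control replicate 4 and knockout replicate 4 alone, and the log2 fold change was 0.43 (SE 0.14). DESeq2 called it higher, as did edgeR without control replicate 4 (log2 fold change 0.55, SE 0.13), so its side of the threshold depends on the tool and on 1 library.

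None of the period genes, whose proteins carry the cryptochromes into the repressing complex, separated the genotypes by its own level. The ratio of Per2 to Per1 CPM was lower in knockouts, at 0.0293 to 0.0391 against 0.0397 to 0.0763 in controls, with the ranges almost touching. How many other gene pairs separate in this way was not tested. Per1 (chromosome 11, 69095108 to 69109965), which also responds within minutes to cAMP and glucocorticoid signals, was at 194, 349, 283 and 293 CPM over the controls and at 289, 305, 392 and 226 CPM in knockouts (log2 fold change 0.11, SE 0.20). Per2 (chromosome 1, 91415977 to 91459351) was at 7.68, 13.9, 13.3 and 22.3 CPM over the controls and at 8.45, 11.9, 14.5 and 7.13 CPM in knockouts. Its spread within a genotype was the widest of the 10 genes (SD 0.55 on the log2 scale, against a median of 0.20 over tested genes), and its log2 fold change was -0.44 (SE 0.32). Per3 (chromosome 4, 150997018 to 151044707) averaged 8.04 ± 1.56 CPM over controls and 7.80 ± 1.74 CPM over knockouts (SD, n = 4 for both), with ranges of 6.47 to 10.2 and 5.48 to 9.70 CPM. Its log2 fold change was -0.04 (SE 0.20).

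Dbp and Tef encode PAR bZIP factors, which bind D-boxes and pass the rhythm on to other genes. Dbp (chromosome 7, 45705100 to 45710203), in many tissues one of the most strongly cycling transcripts, was near the bottom of detection here. Its controls read 1.34, 1.12, 1.02 and 1.72 CPM and its knockouts 0.644, 0.982, 1.26 and 0.884 CPM. These are 33 to 59 reads per control library and 18 to 39 per knockout library, so counting error is a large part of its spread, and the groups overlapped (log2 fold change -0.46, SE 0.28). Of its exon bases, 18% are shared with Sphk2 on the opposite strand, where reads may be lost to either gene. Tef (chromosome 15, 81802673 to 81826863) was at 28.8, 33.3, 17.5 and 36.5 CPM over the controls and at 17.2, 22.2, 28.3 and 17.4 CPM in knockouts. Control replicate 3 lay among the low knockouts, and the log2 fold change was -0.45 (SE 0.24).

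Levels were compared between the 10 genes as FPKM, CPM divided by the GENCODE exon length in kilobases. In controls Per1 was highest at 49.7 ± 11.4 FPKM, followed by Cry1 at 18 ± 3.57, Nr1d1 at 13.6 ± 1.16, Arntl at 9.86 ± 0.295 and Nr1d2 at 7.74 ± 1.05 FPKM (SD, n = 4). Below them were Clock at 6.59 ± 0.775, Tef at 3.69 ± 1.06, Per2 at 2.44 ± 1.03, Per3 at 0.837 ± 0.162 and Dbp at 0.434 ± 0.105 FPKM (SD, n = 4). The ranges of neighbours in this order overlapped between Cry1 and Nr1d1, Nr1d2 and Clock, and Tef and Per2, and the other neighbours were apart. In knockouts Nr1d1 stood second at 42.7 ± 10.5 FPKM, above Cry1 at 24.3 ± 2.61 FPKM, and the order was otherwise the same.

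The genes were then set out by their textbook phase, with E-box and D-box genes in 1 group and Arntl, Npas2 and Nfil3 in the opposite one. This split is coarse, since genes of a group need not peak at the same hour. A shift in clock time need therefore not move a whole group in 1 direction. Of the 7 members driven through E-boxes and D-boxes, 3 had log2 fold changes above 0 and 4 below, from -0.46 to 1.65. The 3 members of the opposite phase group, Arntl, Clock and Cry1, were at 0.23, 0.01 and 0.43. Cry1, which gives the largest value there, was set in this group although it is also driven through E-boxes, with a delay. Nr1d1 at 1.65 and Dbp at -0.46 belong to the same phase group. The set was chosen with this contrast known, and Dbp rests on 18 to 59 reads a library, so nothing is read from that pair. With Npas2, Nfil3, Hlf, Ciart and Bhlhe41 added, 3 of 5 genes in the Arntl group and 5 of 10 in the other were above 0. So extended, neither group had all its genes on 1 side of 0. These counts depend on which genes were added. Bhlhe40, at 0.26, was placed in neither group, nor were the 5 clock-controlled genes read, with 4 above 0 and 1 below. Npas2 and Nfil3 were picked after the values were seen, and without them the Arntl group was all above 0. Whether the hour of collection differed between the genotypes was not tested.

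**Figure D3:**
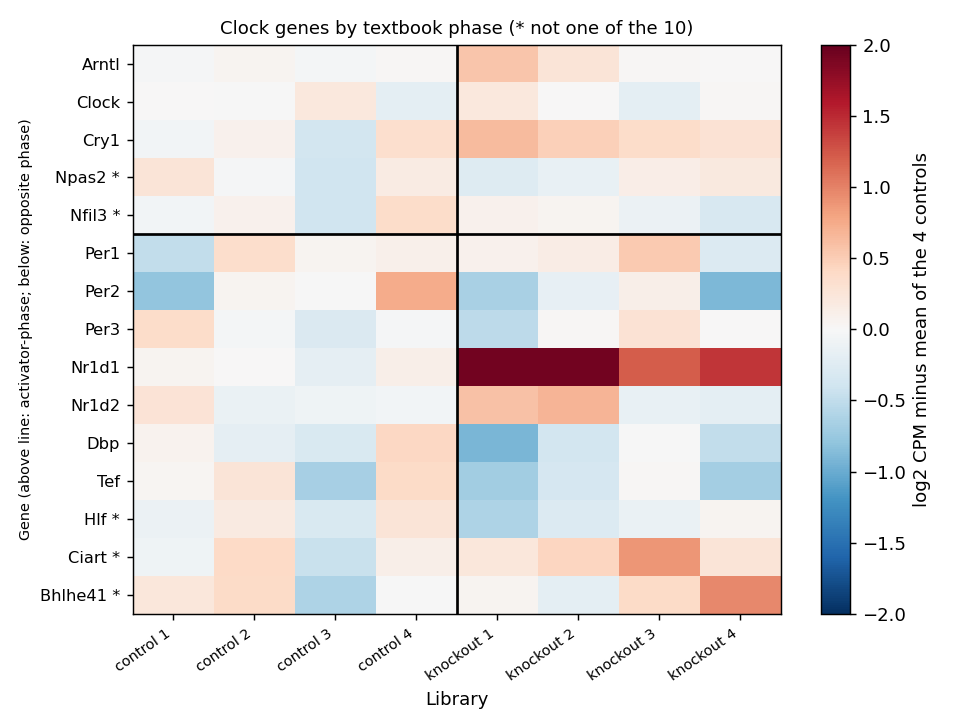
log2 CPM (prior count 2) minus the mean of the 4 controls, by library (columns) and gene (rows), with the Arntl phase group above the line and the E-box and D-box group below it. The Nr1d1 row is 1.21 to 1.93 above the control mean in the 4 knockouts. Other rows of its group go either way. Dbp is -0.92 to -0.01 in knockouts (controls -0.31 to 0.42) and Per2 -0.90 to 0.12 (controls -0.79 to 0.74). Ciart is 0.23 to 0.88 in knockouts (controls -0.44 to 0.40).

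Other genes that REV-ERB proteins are known to repress, picked after the values were seen, include Npas2 and Nfil3, and edgeR called neither. Npas2, which can replace CLOCK, averaged 21.2 ± 4.04 CPM over controls and 20.7 ± 3.16 CPM over knockouts (SD, n = 4 for both, log2 fold change -0.03, SE 0.16). Nfil3, a repressor that competes at D-boxes, averaged 94.4 ± 20.6 and 88.2 ± 10.9 CPM (SD, n = 4 for both, log2 fold change -0.10, SE 0.15).

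Among libraries of 1 genotype, the members formed loose groups. With genotype means subtracted, correlations over the 8 libraries were 0.81 for Arntl with Nr1d1, 0.73 for Arntl with Nr1d2, 0.81 for Per1 with Per2, 0.78 for Dbp with Tef and 0.76 for Dbp with Per3. Clock ran against Dbp (-0.95) and Tef (-0.90). Arntl was at -0.56 with Dbp, -0.70 with Per3 and -0.16 with Tef. The Arntl values rest mainly on the knockouts. Against the control mean (log2), knockout replicates 1 to 4 were at 0.56, 0.25, 0.03 and 0.01, and the controls ran only from -0.04 to 0.05. All libraries enter every one of these values, 2 means were removed, and Dbp rests on few reads. The non-member genes most like Dbp were Sema3f, Pbdc1, Vsig10, Gm7609 and Tmem175, with correlations of 0.978 to 0.988. Those most like Arntl were Ube2d2a, Abl2, Hnrnpk, Sfr1 and Ppp2ca, at 0.980 to 0.985. Among 13015 genes, Tef was 386th in likeness to Dbp and Nr1d1 580th in likeness to Arntl, so many genes were nearer than other clock genes.

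The rest of the pathway was read from a list of 26 genes outside the 10, of which 24 could be tested: 2 were higher, 0 lower and 22 did not pass. limma-voom and DESeq2 also called 2, the count at an unadjusted p under 0.05 was 2 as well (3412 of 13016 over all genes, of which 8.87% were called), and the median log2 fold change was 0.08. The 2 were Fbxw11 and Nampt. Fbxw11, a ubiquitin ligase subunit that marks PER proteins for destruction, was at 100, 113, 98.1 and 111 CPM over the controls and at 171, 160, 119 and 132 CPM in knockouts (log2 fold change 0.46, SE 0.12, edgeR adjusted p = 0.03762). Nampt, a clock-controlled enzyme of NAD synthesis, was at 61, 74.5, 52.7 and 72.6 CPM over the controls and at 91.1, 89.7, 95.3 and 78.3 CPM in knockouts (log2 fold change 0.44, SE 0.12, edgeR adjusted p = 0.04323). Their groups did not overlap, with all 4 knockouts above every control, which held for 7.95% of tested genes. The 2 called of 24 lie near the 8.87% called over all genes, so nothing is read from that count. Neither was called in the 5 libraries that lack Y-linked transcripts, nor without any single control library or without knockout replicate 1 or 2; without knockout replicate 3 Fbxw11 alone was called.

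The 3 largest differences that did not pass were in Ciart, Bhlhe41 and Rora. Ciart, a repressor of the ARNTL and CLOCK pair, averaged 1.18 ± 0.295 and 1.62 ± 0.375 CPM (SD, n = 4 for both; log2 fold change 0.46, SE 0.26). Bhlhe41, a repressor that competes for E-boxes, averaged 2.13 ± 0.602 and 2.68 ± 0.999 CPM (SD, n = 4 for both; log2 fold change 0.34, SE 0.30). Rora, a nuclear receptor that activates through ROR elements, averaged 294 ± 36.2 and 359 ± 66 CPM (SD, n = 4 for both; log2 fold change 0.29, SE 0.14). Hlf, the third PAR bZIP factor beside Dbp and Tef, averaged 35.3 ± 6.20 CPM over controls and 29.9 ± 5.65 CPM over knockouts (SD, n = 4 for both). The plot of differences by gene sets these beside the members.

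**Figure D4:**
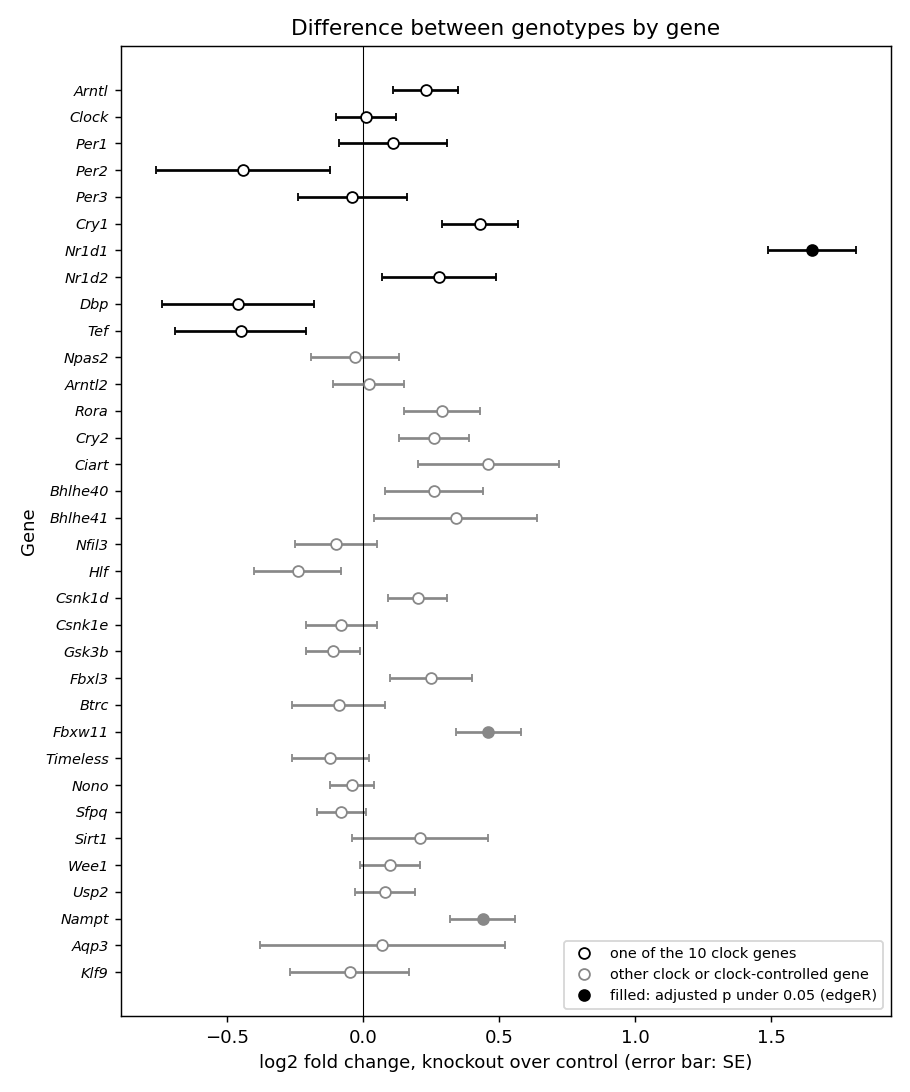
log2 fold change of knockout over control with its SE for the 10 clock genes (black) and 24 other clock and clock-controlled genes (grey), filled where edgeR's adjusted p was under 0.05. Nr1d1 is at 1.65, the other filled points are Fbxw11 at 0.46 and Nampt at 0.44, and the remaining genes lie between -0.46 and 0.46.

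Per1, Nr1d1 and other clock genes also answer to hormones and stress, so lists for these were read in the same fit, where 4.33% of all genes were called higher and 4.54% lower. Of 9 glucocorticoid receptor and response genes, 2 were higher and 2 lower. Zbtb16 rose from 28.6 ± 2.12 to 43.0 ± 8.22 CPM and Ddit4 from 38.5 ± 5.47 to 71.4 ± 7.83 CPM (SD, n = 4 for both). Dusp1 fell from 1170 ± 126 to 817 ± 155 CPM and Cebpd from 24.1 ± 3.13 to 15.7 ± 3.84 CPM (SD, n = 4 for both). Both falls were near the threshold (edgeR adjusted p = 0.04535 for Dusp1 and 0.04733 for Cebpd), and the Cebpd groups overlapped. Of 10 immediate-early genes 1 was lower, Fosb (edgeR adjusted p = 0.0497), at 2020 to 3270 CPM over the controls and at 1420, 1710, 2020 and 2070 CPM in knockout replicates 1 to 4. Of 12 tested hair follicle genes, 4 were lower (Lgr5, Lgr6, Lrig1 and Fgf18) and 0 higher. Calls in these lists were not followed with other tools, other scalings or libraries left out. The part of these genes in the Nr1d1 difference was not tested.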

How the data were processed

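The authors deposited raw whole-number counts per gene symbol, 1 table per library; the submitters' processing notes name mm10 as the build and list TopHat2 2.1.0 with Trimmomatic 0.35, FastQC 0.11.4 and SAMtools 0.1.18. How reads were counted, with which annotation and strand setting, is not given in the sources used here. Reads outside genes (15.7 to 21.7%) and ambiguous ones (0.918 to 1.11%) were left out. Groups came from the sample titles. Counts were filtered with filterByExpr (13016 genes), scaled by TMM and tested with edgeR 4.0.16 (quasi-likelihood, robust, genotype only; R 4.3.3), with Benjamini-Hochberg adjustment over all tested genes; SE is the log2 fold change over the root of F. Where replicates are not separate animals, p-values reflect technical spread only. Alternatives were DESeq2 1.42.0, limma-voom 3.58.1, other scalings and filters, a replicate block, a Y-linked term, and libraries left out; the steps were tested on simulated data. FPKM used GENCODE M21 exon unions. The members and lists were chosen with earlier results of these data known. Named genes were the 10, called pathway genes and the 3 largest uncalled ones. The 5 most like Dbp and Arntl, Hmgb1, and up to 4 called genes of other lists were also named. Hlf, Bhlhe40, Npas2, Nfil3, Thra and Sphk2 were named outside this rule. One result is not reported here.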

Additional observations from a re-analysis of the deposited data

How the results depend on the processing

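Nr1d1, one of the genes chosen on this contrast, had log2 fold changes of 1.47 to 1.78 over the 18 alternatives and stayed among the called genes in each. The count of clock members called was 2 with DESeq2, by adding Cry1, and ranged from 1 to 2 when 1 library was left out. Arntl, Per2, Cry1, Nr1d2, Dbp and Tef kept the sign of their log2 fold change in all 18, whereas Clock changed it in 4 and Per1 and Per3 in 2 each. The count over all genes was 1154, against 2010 with DESeq2, 723 with the replicate block and 383 over the 5 libraries that lack Y-linked transcripts; leaving out 1 library gave 462 to 1247. Library totals in place of TMM moved the median of all genes by -0.11 (log2) and gave 371 higher and 997 lower, against 563 and 591; upper-quartile scaling gave 460 and 723. The other clock genes called, 2 in the main test, were 1 with upper-quartile scaling, with library totals only and with the Y-linked term, 0 with the replicate block and 0 over the 5 libraries that lack Y-linked transcripts, and 0 to 2 leaving out 1 library. The replicate numbers did not pair the libraries: deviations of same-numbered libraries correlated at -0.23 to -0.05, and 0 of 8 were closest to their own number. Under the replicate block 1 clock member was called. The cause of these changes was not tested. With Spearman in place of Pearson, 2 of the 5 genes most like Dbp and 0 of those most like Arntl were among the top 5. Ranked by CPM instead of per kilobase, Clock was second and Nr1d1 sixth. Depth limits Dbp, at 18 to 59 reads a library, and Rorb and Fbxl21 were too low to be tested.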
